A study of Mus musculus with 24 samples.

Results

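The flagellin response of macrophages from C3Bir mice was described over 6 arrays, chosen by their titles, out of 24 arrays in the series. The cells were grown for 6 days from the bone marrow of male C3H/HeJBir mice that lack a working Il10 gene (strain C3H/HeJBir-Il10tm1Cgn), and 3 of the arrays came from cells given 1 µg/mL of the bacterial flagellin Cbir(1) for 4 h, against 3 arrays from cells kept in medium alone. Each RNA sample pooled 3 wells, and 3 mice of each genotype gave cells that were divided between both conditions. Arrays carry numbers from 1 to 3 within a group, which the labels tie to no mouse, so the tests measure the spread between arrays. For each gene that spread was pooled within groups over all 24 arrays. An SE or p value below therefore does not give the spread of the 6 C3Bir arrays alone. The remaining 18 arrays held the same pair of conditions, 3 arrays each, in Il10-deficient macrophages of B6 mice and of the reciprocal congenic strains CB-R1 (titled C3Bir.B6-Cdcs1) and BC-R3 (titled B6.C3Bir-Cdcs1), in which the Cdcs1 colitis locus was exchanged between C3Bir and B6. Every group, the unstimulated ones included, therefore lacked Il10, the gene of a cytokine that restrains macrophage activation.

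Flagellin is the protein subunit of the bacterial flagellum. It is sensed outside the cell by TLR5, which signals through MYD88 to NF-kB and the MAP kinases, and inside the cell by NAIP proteins, which activate caspase-1 through NLRC4. In macrophages NF-kB switches on cytokine, chemokine and adhesion genes together with genes that shut the pathway down again, such as Nfkbia and Tnfaip3, while type I interferon induces a separate set of antiviral genes. The C3H/HeJ lineage is known for a mutation in Tlr4, the receptor for bacterial lipopolysaccharide.

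All values are log2 array signals as deposited, 1 probe set per gene, and differences are flagellin minus unstimulated in log2 units, where 1 unit is a 2-fold difference. The 4 macrophage markers given here, chosen after values were seen, read above the median of all values (6.61) on all 6 arrays. Csf1r, the receptor for the growth factor M-CSF, read 13.88, 13.67 and 13.76 on flagellin arrays 1, 2 and 3, against 13.87, 13.64 and 13.70 on the unstimulated arrays. Cd68, a lysosomal macrophage protein, read 13.83, 13.83 and 13.95 with flagellin, against 13.92, 13.81 and 13.91 without. Their differences were 0.03 (SE 0.10) and -0.01 (SE 0.06), smaller than their SE. Adgre1, the marker F4/80, read 12.81, 12.34 and 12.38 with flagellin, against 12.78, 12.70 and 12.80 without, so that it was lower with flagellin at numbers 2 and 3 (difference -0.25, SE 0.16). Itgam, the integrin CD11b, read 10.62, 9.62 and 10.08 with flagellin, against 10.71, 9.90 and 9.88 without, highest on array 1 of each group.

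The 3 arrays labelled unstimulated did not resemble each other. Unstimulated arrays 2 and 3 correlated at 0.998 over all genes, whereas unstimulated array 1 correlated at 0.988 and 0.989 with them and at 0.998 with flagellin array 1. On both unstimulated arrays 2 and 3, 162 genes were at least 2-fold higher and 88 at least 2-fold lower than on array 1, and among the flagellin arrays the same counts were 12 and 47. Among the genes that were higher on unstimulated arrays 2 and 3 were cytokine, chemokine and NF-kB genes, which is the opposite of the direction known for a flagellin response. The same order was seen for Il12b in B6, at 6.52, 5.96 and 5.93 with flagellin, against 7.36, 11.64 and 11.63 without. Whether the labels of flagellin and unstimulated samples were exchanged for some C3Bir or B6 arrays was not tested; an exchange would turn the sign of the differences that rest on those arrays, the comparison with B6 included. Every direction below therefore holds for the arrays as labelled, and each main list is given by array.

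No gene passed the comparison of the 3 flagellin with the 3 unstimulated arrays. Of 18193 genes tested, 0 (0%) had a limma adjusted p under 0.05, and the lowest adjusted p was 0.624. At an unadjusted p under 0.05 there were 775 genes higher with flagellin (4.26%) and 657 lower (3.61%). The flagellin and unstimulated arrays did not overlap for 1287 genes that were higher with flagellin (7.07%) and 1301 that were lower (7.15%). Group means differed by 2-fold or more for 41 genes. Without unstimulated array 1, 47 genes were called higher with flagellin (0.258%) and 46 lower (0.253%). A fit that weighted arrays by their spread called 832 genes, 517 of them higher, and gave unstimulated array 1 a weight of 0.361, against 1.559 and 1.767 for unstimulated arrays 2 and 3.

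Comparing arrays of the same number gave 2 different pictures. Between flagellin array 1 and unstimulated array 1, 2 genes were over 2-fold higher with flagellin and 0 were over 2-fold lower. The counts were 15 higher and 110 lower for number 2, and 22 higher and 92 lower for number 3. Over the 18193 genes the differences of numbers 2 and 3 correlated at 0.73, while those of number 1 correlated at -0.06 with number 2 and at 0.00 with number 3. Genes are not independent replicates, so these are descriptions of the arrays.

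**Figure D1:**
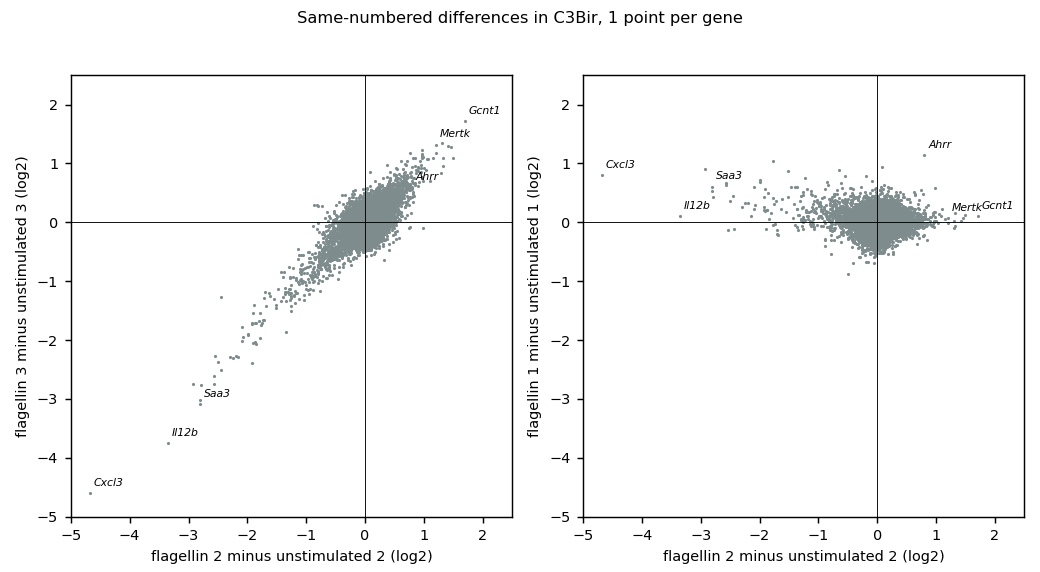
Each point is 1 gene, plotted by its log2 difference, flagellin minus unstimulated, between arrays of the same number (horizontal axes, number 2; vertical axes, number 3 on the left and number 1 on the right). Points lie along the diagonal on the left, where Cxcl3, Il12b and Saa3 sit far below 0 on both axes, and along the horizontal line at 0 on the right, where Ahrr lies well above 0 on both axes.

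The flagellin sensors themselves were measured, except Nlrc4 and Naip1, which were not analysed here. Tlr5 read 7.28, 7.02 and 7.28 with flagellin, against 7.46, 7.35 and 7.37 without. All 3 flagellin arrays lay below all 3 unstimulated arrays, as for 7.15% of all genes, by 0.20 on average (SE 0.10). Naip5, a cytosolic flagellin receptor, read 8.87, 8.79 and 8.87 with flagellin, against 9.01, 8.34 and 8.43 without, so unstimulated array 1 was above the flagellin arrays and the other two were below. Myd88, the adaptor of TLR5, differed by -0.16 (SE 0.19). Casp1, the inflammasome protease, read 10.25, 10.17 and 10.49 with flagellin, against 10.15, 10.91 and 10.96 without. Of the 17 measured genes of this sensing and adaptor list, 12 were lower with flagellin and 5 higher, none passed, and the median difference was -0.11, against 0.00 over all genes. Without overlap between conditions there were 2 of the 17, both lower with flagellin. At an unadjusted p under 0.05 there was 1 of the 17, Il18, which was lower, beside 3.61% of all genes.

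Among the other pattern recognition receptors, 13 of 18 measured genes were lower with flagellin (median -0.18), and none passed. Tlr4 read 8.78, 8.41 and 8.49 with flagellin, against 8.60, 8.10 and 7.95 without. Tlr1, a partner of TLR2 in sensing lipoproteins, read 6.96, 6.07 and 5.87 with flagellin, against 6.40, 7.98 and 7.91 without. Clec4e, the receptor Mincle for mycobacterial glycolipids, read 10.88, 11.72 and 11.82 with flagellin, against 10.94, 13 and 12.96 without. For both genes the groups overlapped only through array 1.

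The 9 measured NF-kB subunits and inhibitors differed together between arrays of the same condition. Their mean was 9.74, 9.88 and 9.90 on the flagellin arrays, against 9.56, 10.75 and 10.72 on the unstimulated arrays. All 9 were lower in the group mean with flagellin (median -0.44), none passed, and unstimulated array 1 was the lowest of its group for 9 of 9. Over all genes, array 1 was the lowest of the unstimulated arrays for 6651 of 18193. Nfkbiz, an inducible nuclear cofactor of NF-kB, read 9.76, 9.31 and 9.41 with flagellin, against 9.04, 11.30 and 11.32 without. Nfkbia, which encodes the inhibitor IkB-alpha, read 12.92, 12.94 and 12.95 with flagellin, against 12.75, 13.59 and 13.66 without.

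Genes that feed back on the pathway had the same arrangement. The 10 measured members averaged 9.69, 9.82 and 9.75 with flagellin, against 9.30, 10.81 and 10.71 without, and none passed (median -0.43). Socs3, the inhibitor of STAT3 signalling by cytokine receptors, read 7.88, 7.78 and 7.68 with flagellin, against 6.97, 10.70 and 10.43 without. The flagellin arrays were within 0.20 of each other, and the unstimulated arrays lay on both sides of them. Tnfaip3, which encodes the ubiquitin-editing enzyme A20, read 10.36, 10.82 and 10.78 with flagellin, against 10.11, 11.40 and 11.37 without. Between arrays of number 1 alone the 10 genes were all higher with flagellin, with a median of 0.26, while the medians were -0.77 for number 2 and -0.78 for number 3.

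Inflammatory cytokines followed the same arrangement. The 18 measured genes averaged 7.48, 7.64 and 7.54 on the flagellin arrays, against 7.42, 8.56 and 8.45 on the unstimulated arrays. Of these, 16 were lower in the group mean with flagellin and 2, Osm and Ifnb1, were higher, none passed, and the median was -0.38. Il12b, the shared p40 subunit of IL-12 and IL-23, read 5.70, 5.95 and 6.00 with flagellin, against 5.60, 9.29 and 9.75 without. The group difference was -2.33 (SE 0.95, limma adjusted p = 0.624). Unstimulated array 1 was at the level of the flagellin arrays and arrays 2 and 3 were far above it.

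Il1b, the gene of a fever-inducing cytokine, read 9.37, 9.0 and 8.88 with flagellin, against 8.94, 11.79 and 11.65 without. Tnf read 8.87, 9.36 and 9.38 with flagellin, against 8.64, 11.45 and 11.16 without. Il1a read 5.38, 5.91 and 5.78 with flagellin, against 5.50, 7.26 and 7.64 without. The flagellin arrays were thus tight for each of these cytokines, and the unstimulated arrays carried nearly all of the spread. Il18, which caspase-1 cleaves into its active form, read 9.79, 9.42 and 9.28 with flagellin, against 9.69, 10.68 and 10.53 without. Il6 was dim, at 3.87, 4.01 and 3.89 with flagellin, against 4.01, 5.72 and 5.17 without. Ifnb1 was 6.63, 6.45 and 6.48 with flagellin, against 6.36, 6.62 and 6.46 without, and its groups overlapped (difference 0.04, SE 0.11).

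The Il10 probe set read 6.78, 6.51 and 6.36 with flagellin, against 6.59, 7.44 and 7.25 without, although every group carries the disrupted gene. A probe set outside the disrupted part of a gene can still detect its transcript, so it does not check the genotype.

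**Figure D2:**
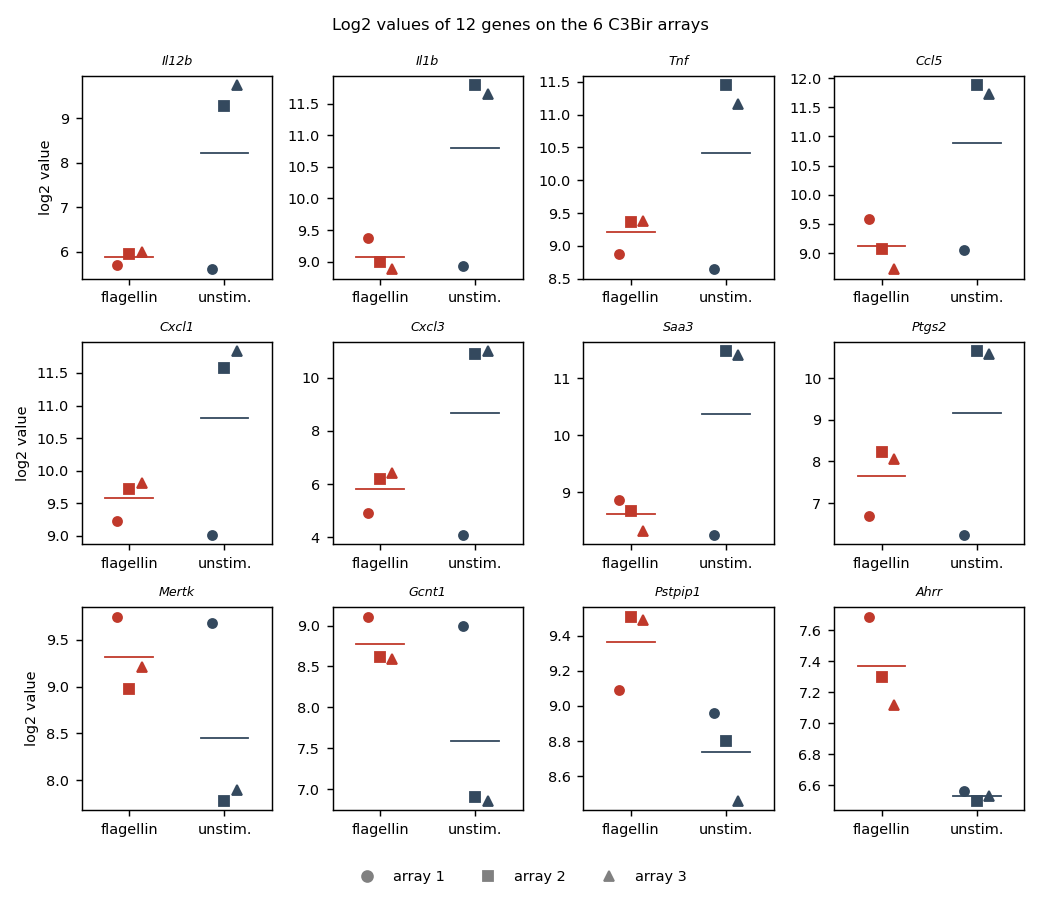
Log2 values of 12 genes on the 6 C3Bir arrays, flagellin on the left and unstimulated on the right of each panel; marker shapes give the array number and bars the group means. For Il12b, Il1b, Tnf, Ccl5, Cxcl1, Cxcl3, Saa3 and Ptgs2 unstimulated arrays 2 and 3 lie above all others, for Mertk and Gcnt1 they lie below all others, and for Pstpip1 and Ahrr the conditions do not overlap.

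The chemokines that draw neutrophils through the receptor CXCR2 included Cxcl3, the gene with the largest group difference of all 18193. Cxcl3 read 4.90, 6.19 and 6.40 with flagellin, against 4.09, 10.87 and 11.00 without, a difference of -2.82 (SE 1.45, limma adjusted p = 0.634). Unstimulated array 1 was the lowest of the 6 arrays, and arrays 2 and 3 were the highest. Cxcl1 read 9.22, 9.71 and 9.81 with flagellin, against 9.01, 11.58 and 11.84 without. Cxcl2 read 10.73, 11.24 and 11.40 with flagellin, against 9.85, 12.75 and 12.85 without. Cxcl5 was dim, at 4.27, 4.41 and 4.55 with flagellin, against 4.21, 6.26 and 6.62 without. All 7 genes of this list were lower in the group mean with flagellin (median -0.69) and none passed. The list averaged 7.76, 8.04 and 8.05 with flagellin, against 7.48, 9.56 and 9.65 without. Without unstimulated array 1, Cxcl1 differed by -2.13 (limma adjusted p = 0.0368) and Cxcl5 by -2.03 (limma adjusted p = 5.44e-07). Those 2 of the 7 were called, beside 0.253% of all genes called lower in that fit. The array left out lay below all 3 flagellin arrays for both genes. Without unstimulated arrays 2 and 3 instead (of B6 as well as C3Bir), the list median was 0.20.

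The starts of Cxcl1, Cxcl2 and Cxcl3 are shown because these genes differed together from array to array and carry the same stretch of bases. The kappa-B consensus, the site that NF-kB dimers recognise, was searched by name on both strands in the 250 bases before each gene start of the RefSeq promoter table (build GRCm38.p6). It was found before 8.23% of 27025 genes, and before 3 of the 6 genes of this chemokine list that the table holds. The 10 genes with the widest spread over the unstimulated C3Bir arrays were searched too. The table holds 9 of them, and 2, Cxcl2 and Cxcl3, had a match. Cxcl1, Cxcl2 and Cxcl3 lie close together on chromosome 5 and share the same bases, so they do not count as independent matches. In each of the 3, matches on both strands overlapped over 11 bases, GGGAATTTCCC, given in capitals in windows with 30 flanking bases, read on the gene's own strand, which is the plus strand. The windows lie at chr5:90891144-90891214 for Cxcl1, chr5:90903772-90903842 for Cxcl2 and chr5:90785998-90786068 for Cxcl3, and the matches begin 71, 97 and 73 bases before the gene starts.
Cxcl1: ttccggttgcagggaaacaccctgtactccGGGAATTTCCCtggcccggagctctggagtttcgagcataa
Cxcl2: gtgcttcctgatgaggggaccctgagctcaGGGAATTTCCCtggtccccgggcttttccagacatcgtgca
Cxcl3: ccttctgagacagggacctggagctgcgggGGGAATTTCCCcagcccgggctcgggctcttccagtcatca
A match of letters is a description of the sequence, and binding was not measured.

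Of the 12 CC chemokines, which draw monocytes, T cells and dendritic cells, 10 were lower in the group mean with flagellin (median -0.51) and none passed. Ccl5 read 9.59, 9.07 and 8.72 with flagellin, against 9.06, 11.88 and 11.73 without, a difference of -1.76 (SE 0.75, limma adjusted p = 0.624). Ccl3 read 9.22, 9.22 and 9.13 with flagellin, against 8.54, 11.21 and 11.02 without. Ccl22 read 6.96, 7.22 and 6.85 with flagellin, against 7.01, 8.99 and 8.59 without. These 3 genes shared the arrangement of the neutrophil chemokines, with unstimulated arrays 2 and 3 above the other 4 arrays. Ccl17 was the only 1 of the 12 whose groups did not overlap, beside 7.15% of all genes, at 6.21, 6.36 and 6.34 with flagellin, against 6.40, 6.54 and 6.52 without (difference -0.18, SE 0.12).

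Inflammatory effector enzymes and acute-phase products followed. Of 22 measured, 19 were lower in the group mean with flagellin (median -0.30), none passed, and unstimulated array 1 was the lowest of its group for 19. Ptgs2, the inducible cyclooxygenase COX-2, read 6.68, 8.22 and 8.07 with flagellin, against 6.23, 10.66 and 10.58 without. Acod1, which makes itaconate, read 9.61, 10.54 and 10.41 with flagellin, against 9.34, 12.85 and 12.69 without. For these 2 enzymes array 1 was the lowest array in both conditions.

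Saa3, an acute-phase protein made by macrophages, read 8.86, 8.67 and 8.32 with flagellin, against 8.25, 11.48 and 11.41 without. Ptges, the prostaglandin E synthase that acts after COX-2, read 7.88, 8.40 and 8.38 with flagellin, against 8.10, 10.09 and 9.81 without. Saa3 and Ptges, 2 of the 22 members, were called without unstimulated array 1 (0.253% of all genes were called lower there), by -2.83 (limma adjusted p = 0.0442) and -1.73 (limma adjusted p = 0.0291). On the array left out, Saa3 was below all flagellin arrays and Ptges lay among them. Without unstimulated arrays 2 and 3 instead (of B6 as well as C3Bir), the median of the 22 was 0.18. Nos2, the inducible nitric oxide synthase, differed by -0.17 (SE 0.28), and its groups overlapped.

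Costimulatory and surface activation molecules gave 14 of 15 lower group means with flagellin (median -0.43), and none passed. At an unadjusted p under 0.05 there were 5 of 15, Vcam1, Cd44, Cd83, Slamf1 and Sdc4, all lower, beside 3.61% of all genes. Genes that differ together between arrays are not independent, so this count is a description. Cd40, the receptor for CD40 ligand on T cells, read 8.62, 8.73 and 8.69 with flagellin, against 8.26, 11.23 and 11.06 without. Icam1, a ligand of leukocyte integrins, read 10.39, 10.67 and 10.70 with flagellin, against 10.23, 12.47 and 12.38 without. Ch25h, which makes an oxysterol, belonged to the sterol list and read 6.42, 6.36 and 6.25 with flagellin, against 6.12, 8.44 and 8.20 without.

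Interferon-stimulated genes had another arrangement, in which flagellin array 1 had the highest list mean. The 28 measured genes averaged 10.48, 9.57 and 9.60 with flagellin, against 10.15, 10.19 and 9.98 without, with 23 lower in the group mean (median -0.22). None passed, and 0 of 28 had an unadjusted p under 0.05, beside 4.26% of all genes higher and 3.61% lower. Mx1, an antiviral GTPase, read 9.85, 8.38 and 8.35 with flagellin, against 9.10, 9.61 and 9.13 without. Iigp1, a GTPase that acts on vacuoles of intracellular pathogens, read 9.58, 7.47 and 7.24 with flagellin, against 8.90, 8.32 and 8.15 without, so that array 1 was the highest of each group. Cxcl10, an interferon-induced ligand of CXCR3, read 9.29, 8.40 and 8.48 with flagellin, against 8.68, 9.79 and 9.42 without. Gbp3, a guanylate-binding protein, followed the cytokine genes, at 8.93, 8.80 and 9.12 with flagellin, against 8.73, 10.70 and 10.65 without.

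**Figure D3:**
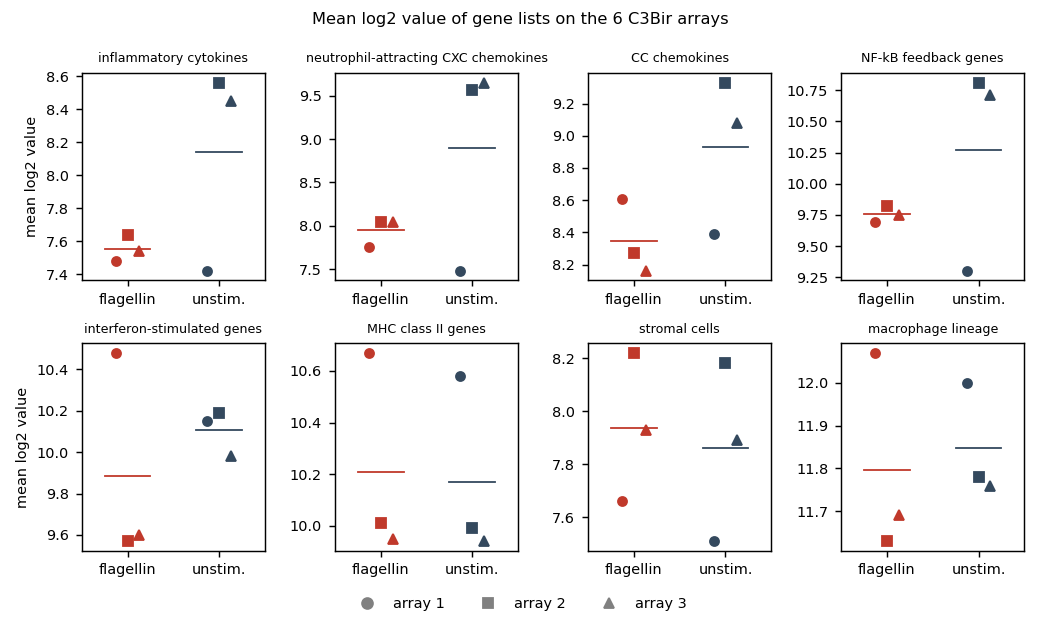
Mean log2 value of 8 gene lists on each C3Bir array, flagellin on the left and unstimulated on the right of each panel; marker shapes give the array number and bars the group means. In the 4 upper panels unstimulated arrays 2 and 3 stand above the other 4 arrays, and in the panels for MHC class II and macrophage lineage genes array 1 is the highest of each group, and for stromal cell markers it is the lowest.

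Several gene groups differed by array number in both conditions. The 7 measured MHC class II genes, which present antigen to helper T cells, averaged 10.67, 10.01 and 9.95 with flagellin, against 10.58, 9.99 and 9.94 without, with a median difference between conditions of 0.02. Neutrophil markers averaged 11.39, 10.77 and 10.50 with flagellin, against 11.28, 10.82 and 10.56 without, over 10 measured genes. Stromal cell markers ran the other way, at 7.66, 8.22 and 7.93 with flagellin, against 7.51, 8.18 and 7.89 without, over 14 genes. Col1a2, a collagen chain of fibroblasts, read 9.48, 10.34 and 10.05 with flagellin, against 9.27, 10.24 and 9.93 without.

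Of the 10 neutrophil markers, 0 passed, and 4 were higher and 6 lower with flagellin; of the 14 stromal markers, 0 passed, with 10 higher and 4 lower. Array signals have no true zero; 0 of the 10 neutrophil and 0 of the 14 stromal markers lay under the lower quartile of all values (5.37) on all 6 arrays. In such bulk RNA fewer cells of a type and less RNA per cell cannot be told apart. The part of these cells in the differences between unstimulated arrays was not tested. Over the unstimulated arrays the list means ranged from 10.56 to 11.28 for neutrophil and from 7.51 to 8.18 for stromal markers. Between conditions, the list means of the same number differed by at most 0.06 for neutrophil and 0.04 for stromal markers at numbers 2 and 3. The gaps were wider at number 1, at 11.39 with flagellin against 11.28 without for neutrophil markers, and 7.66 against 7.51 for stromal markers. The lists for endothelial cells with adipocytes, erythroid cells with megakaryocytes, mast cells with basophils, T with NK cells, B cells, eosinophils, dendritic cells and osteoclasts had median differences between conditions from -0.10 to 0.01, with 0 genes called.

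Macrophage lineage genes did not share a direction. Of the 20 measured macrophage lineage genes, 14 were lower and 6 higher in the group mean with flagellin (median -0.03) and none passed. Mertk, a receptor for the uptake of apoptotic cells, read 9.75, 8.98 and 9.21 with flagellin, against 9.68, 7.78 and 7.89 without. Its difference was 0.86 (SE 0.35) with all arrays, and 1.48 (limma adjusted p = 0.0207) without unstimulated array 1, where it was the only 1 of the 20 called (0.258% of all genes were called higher there). On the array left out, Mertk lay among the flagellin arrays. Marco, a scavenger receptor for bacteria, read 8.39, 8.05 and 8.01 with flagellin, against 7.79, 10.14 and 10.03 without, opposite to Mertk. Gcnt1, which branches O-linked glycans, was named after its values were seen and had the largest positive difference of all genes. It read 9.11, 8.61 and 8.59 with flagellin, against 9.0, 6.90 and 6.86 without, a difference of 1.18 (SE 0.45).

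The largest differences among genes whose conditions did not overlap are a selection made on this contrast and are given as values. The 10 on the high side were Cytip, Ahrr, Eepd1, Cd28, Pde7b, Fabp7, Havcr2, Tanc2, Pstpip1 and Fbxo32, with differences from 0.59 to 0.86. Cytip, which regulates integrin adhesion in leukocytes, read 10.55, 10.83 and 10.66 with flagellin, against 10.39, 9.50 and 9.57 without. Havcr2, the inhibitory receptor TIM-3, read 7.93, 7.89 and 7.85 with flagellin, against 7.81, 6.94 and 6.99 without. Both were near the flagellin level on unstimulated array 1.

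Pstpip1, which encodes an adaptor of the cytoskeleton that binds pyrin, was the gene with the lowest p of these 20, without passing adjustment (limma adjusted p = 0.624). It read 9.09, 9.51 and 9.49 with flagellin, against 8.96, 8.80 and 8.46 without. Tanc2, a scaffold protein, read 8.40, 8.64 and 8.43 with flagellin, against 8.23, 7.68 and 7.66 without. Without unstimulated array 1 their differences were 0.73 (limma adjusted p = 0.0422) and 0.82 (limma adjusted p = 0.0250).

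The 10 on the low side were Gas7, Gpr85, Lad1, Rab11fip1, Orai2, Clec5a, Col18a1, Mir99ahg, Rcsd1 and Smpdl3b, with differences from -1.27 to -0.45. Gas7 read 9.69, 8.16 and 9.38 with flagellin, against 9.79, 10.60 and 10.65 without, and flagellin array 2 was the lowest. Clec5a, an activating receptor of myeloid cells, read 7.69, 7.50 and 7.78 with flagellin, against 7.80, 8.57 and 8.49 without. Orai2, a subunit of calcium channels opened when stores are empty, read 8.70, 8.40 and 8.75 with flagellin, against 8.78, 9.48 and 9.56 without. The number 1 arrays differed by under 0.2 for 16 of these 20 genes; the exceptions were Ahrr, Lad1, Rab11fip1 and Col18a1.

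**Figure D4:**
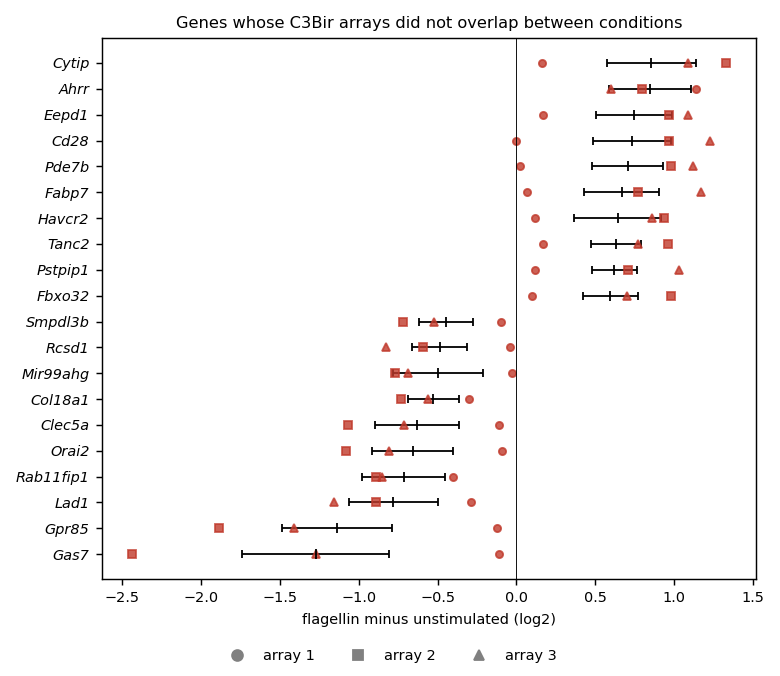
The 10 largest positive and 10 largest negative log2 differences, flagellin minus unstimulated, among genes whose C3Bir arrays did not overlap between conditions; black bars give the difference of group means ± SE and markers the differences between arrays of the same number. The marker for number 1 lies nearer to 0 than those for numbers 2 and 3 for every gene but Ahrr.

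Ahrr was among the genes whose difference had the same sign at every number. Ahrr, a repressor of the aryl hydrocarbon receptor and itself a target of that receptor, read 7.69, 7.30 and 7.12 with flagellin, against 6.56, 6.50 and 6.53 without. The differences were 1.14, 0.80 and 0.60 for numbers 1, 2 and 3, the mean 0.85 (SE 0.26, limma adjusted p = 0.624). It was 0.86 without unstimulated array 1 and 0.82 without unstimulated arrays 2 and 3 (of B6 as well as C3Bir), so that neither kind of unstimulated array carried it. In all, 3689 genes (20.3%) were higher and 2954 (16.2%) lower with flagellin at every number, but only 18 were higher and 10 lower by over 0.3 at every number.

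Tiparp, Cyp1b1 and Dusp6 were named after their values were seen. Tiparp, another target of the aryl hydrocarbon receptor, read 9.53, 9.76 and 9.75 with flagellin, against 9.15, 9.38 and 9.42 without, a difference of 0.36 (SE 0.21). Cyp1b1, a further target, read 7.32, 8.26 and 7.87 with flagellin, against 6.82, 8.18 and 7.91 without, so that number 3 did not share the sign. Dusp6, a phosphatase of the kinase ERK, read 10.10, 9.48 and 9.19 with flagellin, against 9.63, 8.84 and 8.70 without. Dusp1, a phosphatase of the stress-activated kinases, read 11.85, 11.68 and 11.78 with flagellin, against 11.48, 11.50 and 11.39 without, and its groups did not overlap (difference 0.31, SE 0.12).

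Of the 12 MAP kinase phosphatase and mRNA decay genes, 5 were higher and 7 lower with flagellin, with a median of -0.02, and none passed; Dusp1 and Spry2 were the 2 of 12 without overlap, both higher, beside 7.07% of all genes. Spry2, an inhibitor of growth factor signalling, read 8.18, 8.09 and 8.10 with flagellin, against 8.0, 7.63 and 7.72 without. Of the 18 immediate early transcription factors, which serum and stress induce within minutes, 11 were higher and 7 lower, with a median of 0.08. Egr1 read 8.45, 8.31 and 7.86 with flagellin, against 8.11, 7.76 and 7.56 without, and its groups overlapped. Fosl2 and Klf4 were the 2 of 18 without overlap, a share near the 7.07% of all genes, with differences of 0.40 (SE 0.24) and 0.26 (SE 0.18).

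Metabolic and other remaining lists had medians nearer to 0 than the -0.38 of the cytokine list. In the NRF2 list unstimulated array 1 was the lowest of its group for 12 of 13 measured genes. In the glycolysis list this held for 15 of 16, beside 6651 of all 18193 genes. The 13 measured NRF2 and antioxidant genes had a median of -0.20, and Slc7a11, the cystine transporter, was low on array 1 in both conditions, at 6.59, 8.29 and 8.49 with flagellin, against 6.52, 9.56 and 9.81 without. Glycolysis and hypoxia genes had a median of -0.07 over 16 measured. In that list 1 of 16 was higher without overlap, beside 7.07% of all genes, and 1 was lower without overlap, beside 7.15%. Vegfa, the vascular growth factor, did not overlap, at 9.94, 9.98 and 9.95 with flagellin, against 9.91, 9.47 and 9.49 without. Lysosome and cathepsin genes had a median of 0.04 over 16, proliferation genes 0.10 over 19, sterol and lipid genes -0.10 over 18, circadian and glucocorticoid-responsive genes 0.01 over 20, stress response genes 0.02 over 14, alternative activation genes -0.06 over 15, IL-10 and STAT3 genes -0.15 over 14, and other CXC chemokines -0.18 over 7, with none called in any of these lists.

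The same contrast was set beside that of the other strains, which shares no array with it but shares the pooled spread. At an adjusted p under 0.05, limma called 0 genes in C3Bir, 4068 in B6, 0 in CB-R1 and 0 in BC-R3, and unadjusted p values under 0.05 were found for 1432, 6874, 517 and 1584 genes. A 2-fold difference of group means was found for 41 genes in C3Bir, 338 in B6, 4 in CB-R1 and 11 in BC-R3. The tests of the C3Bir difference minus that of another strain called 0 genes against B6 (lowest adjusted p 0.123), 0 against CB-R1 (0.910) and 0 against BC-R3 (0.521). At an unadjusted p under 0.05 these tests gave 2433 genes (13.4%), 894 (4.91%) and 1580 (8.68%). These counts depended on single arrays. Leaving out B6 unstimulated array 1 gave 1373 called genes against B6, leaving out B6 flagellin array 1 gave 80 and B6 flagellin array 2 gave 3. Leaving out BC-R3 unstimulated array 1 gave 315 against BC-R3. Leaving out C3Bir unstimulated array 1 gave 8, 4 and 23 against B6, CB-R1 and BC-R3.

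Cytokine genes had negative differences in C3Bir and B6 and differences near or above 0 in both congenic strains. Il12b differed by -2.33 (SE 0.95) in C3Bir, -4.08 in B6, 0.11 in CB-R1 and -0.21 in BC-R3. On the B6 arrays, too, unstimulated array 1 was the low array of its group. The BC-R3 unstimulated arrays were also split, with array 1 the high one. There Il12b read 7.83, 5.72 and 5.43 and Il1b read 10.06, 7.88 and 7.65 on unstimulated arrays 1, 2 and 3. The BC-R3 differences are therefore means over unlike arrays, and the reason for the split was not tested. Il1b differed by -1.71 in C3Bir, -2.92 in B6, 0.93 in CB-R1 and 0.89 in BC-R3. The C3Bir difference of Il1b minus that of CB-R1 was -2.64 (SE 1.10, limma adjusted p = 0.911), and minus that of BC-R3 it was -2.60 (SE 1.10, limma adjusted p = 0.546). The cytokine list had a median difference of -0.38 in C3Bir, -0.90 in B6, 0.09 in CB-R1 and 0.09 in BC-R3.

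The largest positive C3Bir minus B6 differences taken by the naming rule were those of the interferon-induced genes Oasl1, Mx1, Cxcl10, Ifi213 and Iigp1. Mx1 differed by -0.42 in C3Bir and -3.49 in B6, Oasl1, a sensor-like antiviral protein, by -0.10 and -3.38, and Cxcl10 by -0.57 and -3.51. The C3Bir minus B6 differences were 3.07 (SE 1.08) for Mx1, 3.27 (SE 1.00) for Oasl1 and 2.93 (SE 1.18) for Cxcl10, with limma adjusted p = 0.239, 0.180 and 0.289. The list median was -0.22 in C3Bir, -1.99 in B6, 0.37 in CB-R1 and -0.02 in BC-R3. Ifi213, a member of the interferon-inducible HIN-200 family, was dim on all C3Bir arrays, at 5.04, 4.82 and 4.74 with flagellin, against 4.90, 4.85 and 4.91 without, so that its C3Bir minus B6 difference of 2.77 (SE 0.70, limma adjusted p = 0.138) came from B6, where it read 8.60, 5.54 and 6.75 with flagellin, against 8.99, 9.95 and 10.30 without.

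Gpr183, the receptor for an oxysterol derived from the product of Ch25h, differed by 0.67 in C3Bir and 2.20 in B6. Neat1, a long noncoding RNA of nuclear paraspeckles, differed by -0.35 in C3Bir and 1.67 in B6, and its C3Bir minus B6 difference was -2.02 (SE 0.47, limma adjusted p = 0.123).

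Gcnt1, Mertk and Tmem154 had positive differences in C3Bir and negative ones in CB-R1 and BC-R3. Gcnt1 differed by 1.18 in C3Bir, 0.75 in B6, -0.31 in CB-R1 and -0.60 in BC-R3. Mertk differed by 0.86, 0.29, -0.28 and -0.34 in the same strains. Tmem154, a membrane protein, read 7.21, 7.13 and 7.20 on the C3Bir arrays with flagellin, against 7.22, 5.93 and 6.03 without, and its C3Bir minus CB-R1 difference was 1.25 (SE 0.38, limma adjusted p = 0.911). Fpr2, a receptor for formylated bacterial peptides, had the reverse signs, at -1.55 in C3Bir, -1.65 in B6, 0.93 in CB-R1 and 1.59 in BC-R3. In BC-R3 unstimulated array 1 stood apart here as well, with Fpr2 at 10.72, against 7.29 and 7.10 on unstimulated arrays 2 and 3.

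**Figure D5:**
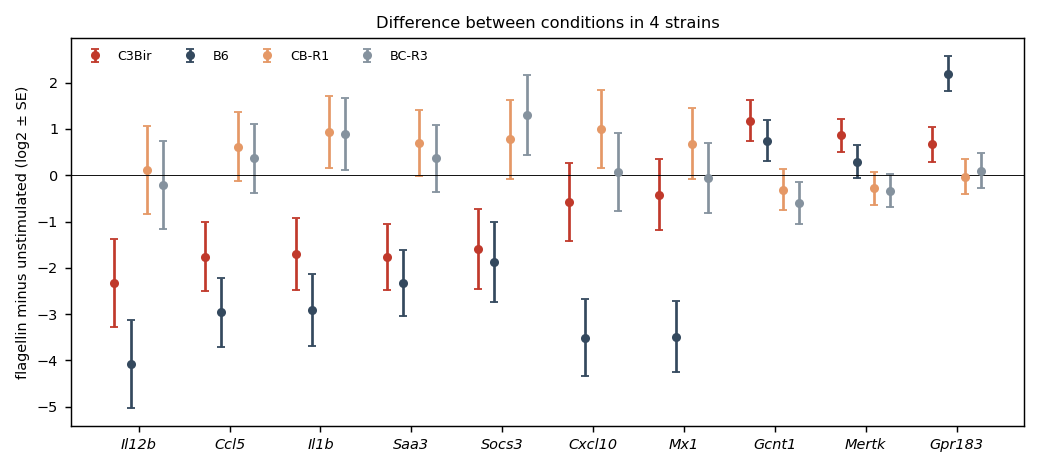
Log2 difference, flagellin minus unstimulated, with its SE in C3Bir, B6, CB-R1 and BC-R3 macrophages for 10 genes. C3Bir and B6 lie below 0 for Il12b, Ccl5, Il1b, Saa3 and Socs3, B6 lies apart from the other strains for Cxcl10, Mx1 and Gpr183, and C3Bir and B6 lie above 0 for Gcnt1 and Mertk.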

How the data were processed

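The authors deposited 1 table of log2 values for 45037 Affymetrix probe sets on 24 arrays; the sources used here do not give their normalization, and no further scaling was applied. Array medians lay between 6.55 and 6.64, and the number of arrays limits the precision. Probe sets without values (4) were left out, 34944 had 1 gene symbol in the platform annotation, 931 had several and 9158 had none. For 18193 genes the brightest probe set, by its mean on the 24 arrays, stood for the gene; 9010 genes had more than 1, and of 188 genes named by the rule or later, 23 had another probe set with a difference of opposite sign.

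limma 3.58.1 (R 4.3.3) fitted 8 group means to all 24 arrays with eBayes, two-sided, with Benjamini-Hochberg adjustment over all genes and calls at an adjusted p under 0.05. The script was tested on simulated data. The study members, 34 gene lists (479 genes, of which 36 were not analysed here) and tests were chosen with earlier results of these data known. Named genes were the 10 largest positive and negative differences without overlap, the 10 widest unstimulated spreads, up to 4 per list, 5 per direction in each strain difference, and a fixed set; Ahrr, Tiparp, Cyp1b1, Mertk, Cxcl5, Saa3, Ptges, Gcnt1, Dusp6, Csf1r, Adgre1, Cd68 and Itgam were added after values were seen, some of them also meeting the rule. Deviations from the group mean correlated at 0.484, 0.307 and 0.381 between same-numbered C3Bir arrays, all above 0.1. Flagellin array 2 with unstimulated array 3 (0.23) and flagellin array 3 with unstimulated array 2 (0.209) also lay above 0.1. The remaining C3Bir values between different numbers lay from -0.445 to -0.316. Each same-number value was the highest for its flagellin array, but passing 0.1 does not establish that the numbers pair these arrays. The labels give no pairing. Alternatives were other normalizations, filters, probe set choices, a replicate block, array weights and leaving out arrays.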

Additional observations from a re-analysis of the deposited data

How the results depend on the processing

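No gene was called in C3Bir (0) after quantile normalization or centring on medians, with low values filtered, with every probe set tested or probe sets averaged per gene, in a trended robust fit, with the compared arrays alone, or without unstimulated arrays 2 and 3 of B6 and C3Bir, with 866 to 3404 features at an unadjusted p under 0.05. With the replicate number as a block, 0 genes were called as well (lowest adjusted p 0.372 with a fixed block, 0.474 with a random block and 0.340 in the paired fit of the 6 arrays). The replicate block also gave 0 calls for C3Bir minus B6, CB-R1 and BC-R3. Its results for the differences within B6, CB-R1 or BC-R3 are not given here. At an unadjusted p under 0.05 the fit on all arrays gave 1432 genes in C3Bir and 2433, 894 and 1580 for C3Bir minus B6, CB-R1 and BC-R3. Weighting the arrays called 832 genes in C3Bir and 2582, 693 and 2758 for C3Bir minus B6, CB-R1 and BC-R3, where the main counts were 0. Leaving out 1 array of the compared strains at a time gave 0 to 93 genes in C3Bir and 0 to 1373 against B6. It gave 0 to 4 against CB-R1 and 0 to 315 against BC-R3. For the difference within C3Bir, only C3Bir arrays were left out in turn, and only the omission of unstimulated array 1 gave calls. Its results without single arrays of other strains, which share the pooled spread, are not given here. In alternatives chosen after seeing the data, leaving out the number 1 arrays of all strains gave 886, 1267, 463 and 1903 genes, and leaving out only those of C3Bir gave 4, 1, 2 and 8. The cause of these changes was not tested. Of 188 named genes, none of which passed in the main comparison, 110 changed sign under some alternative and 102 passed under some alternative, 74 of them with array weights and 14 without unstimulated array 1. Without unstimulated arrays 2 and 3 the median difference of 18 of 34 lists changed sign.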

Other observations

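Ahrr, whose C3Bir difference had the same sign at every array number, was examined in the other strains after its C3Bir values were seen. On B6 arrays 1, 2 and 3 it read 7.39, 6.68 and 6.71 with flagellin, against 6.70, 5.64 and 5.56 without, again higher with flagellin at every number. Flagellin array 2 lay just below unstimulated array 1, so the B6 groups overlapped. The B6 difference was 0.96 (SE 0.26, limma adjusted p = 0.0147), in a comparison that called 4068 of 18193 genes. Deviations of same-numbered B6 arrays correlated at 0.007, 0.11 and -0.349, which does not establish that the numbers pair them. On CB-R1 arrays it read 7.34, 6.83 and 7.55 with flagellin, against 6.97, 6.88 and 6.51 without. On BC-R3 arrays it read 6.60, 6.44 and 7.03 with flagellin, against 6.69, 6.22 and 6.36 without, and in both congenic strains the groups overlapped as well. Tiparp did not repeat its C3Bir order in B6, where it read 9.45, 9.32 and 8.79 with flagellin, against 9.48, 10.57 and 10.59 without, a difference of -1.03 (SE 0.21, limma adjusted p = 0.00424).

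Ppfia3, a liprin that organises presynaptic sites in neurons, was among the 10 genes with the widest spread over the unstimulated C3Bir arrays, beside Cxcl3, Ptgs2, Il12b, Socs3, Acod1, Saa3, Slc7a11, Cxcl2 and Cd40. It read 7.17, 7.49 and 7.52 with flagellin, against 6.83, 9.73 and 9.83 without. On unstimulated array 1 it was below all flagellin arrays. Without unstimulated array 1 its difference was -2.39 (limma adjusted p = 0.0207). Among the 93 genes called there, 3 named here that belong to none of the lists were Enc1 at 1.59 (limma adjusted p = 0.0388), Rnf144b at 1.61 (limma adjusted p = 0.0207) and Gpr85, an orphan receptor, at -1.63 (limma adjusted p = 0.0290).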
